A study of Mus musculus with 12 samples.

Results

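Hepatic glucose output was followed through 9 genes named by symbol: the enzyme genes Pck1, G6pc, Fbp1 and Pcx, the transporter genes Slc37a4 and Slc2a2, the glucagon receptor gene Gcgr, and the regulator genes Ppargc1a and Foxo1. The rule that names them uses no measured value, and 9 of 9 were among the 12086 genes of the table. The livers came from male wild type C57BL/6 mice killed fasted at postnatal day 84, and RNA sequencing was done on whole tissue. Litters were cut to 6 pups on day 3 and sons were weaned on day 21.

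Each group has a code of 2 letters, the dam's diet before the son's, with O for obesogenic and C for control. OO sons ate the obesogenic diet after a dam on the same diet, CO sons ate it after a control dam, OC sons ate control chow after an obesogenic dam, and CC sons and dams ate control chow throughout. The chow held 7% simple carbohydrate and 3% lipid. The obesogenic food held 10% and 20% of these and was given with condensed milk at 55% simple carbohydrate, 8% lipid and 8% protein. The labels list 12 samples, 3 for each group, and 11 libraries were analysed here: 3 of OO, 2 of CO, 3 of OC and 3 of CC, numbered from 0 within a group (OO.0, OO.1 and so on). The sources used here do not say which sons were littermates, so p-values measure the spread between these libraries only. By the labels the groups differed in diet alone and shared strain, sex, age and the fast.

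In a fasted animal the liver releases glucose made from lactate, glycerol and amino acids. Pyruvate carboxylase and phosphoenolpyruvate carboxykinase turn pyruvate into phosphoenolpyruvate, fructose bisphosphatase passes the later block, and glucose-6-phosphatase frees glucose inside the endoplasmic reticulum after Slc37a4 has carried the phosphate ester in. Glucagon raises this program through its receptor, cAMP and the coactivator PGC-1α, and insulin lowers it largely by driving FOXO1 out of the nucleus.

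Libraries that stood apart are given first. Depth ran from 3976158 reads in OO.1 to 7969056 in OC.0 in 10 libraries, and OO.0 had 27837609. The summed values of 8 measured exocrine pancreas markers reached 3111 in CO.1, 5087 in OC.0 and 747 in CC.1, and none of the other 8 libraries exceeded 103. The sum of 4 measured skeletal muscle markers was highest in OO.0, at 116, and next in CC.0, at 64.0. It reached 29.3 in CO and 26.4 in OC. OC.1 and CO.1 are known from earlier results of these data, whose values are not given here, to be high in acute phase transcripts. Hepatocyte markers were abundant in all libraries, with 5 of 6 measured and sums of 30691 to 36104 in OO, 36051 to 36107 in CO, 32933 to 35692 in OC and 36677 to 38299 in CC. All levels are given as scaled counts, on nearly the CPM scale, and every member lay above 3 reads in all libraries.

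The proximal promoters of the genes the results turn on are shown first, as 250 bases before each RefSeq start site on GRCm38.p6. G6pc lies at chr11:101367466-101367715 (+) and Pck1 at chr2:173152823-173153072 (+). Slc37a4 has 3 listed start sites, of which the first (upstream), chr9:44396696-44396945 (+), and the last (downstream), chr9:44398104-44398353 (+), are shown. The window of the middle one overlaps the first in part and is described without its letters. Capitals mark matches on either strand to 4 motifs: the core of the cAMP response element TGACG, the forkhead core GTAAACA, the insulin response core CAAAACA and the TATA box TATAAA. The full cAMP response element TGACGTCA, which holds the core, was also searched and is in none of the members' windows.
G6pc: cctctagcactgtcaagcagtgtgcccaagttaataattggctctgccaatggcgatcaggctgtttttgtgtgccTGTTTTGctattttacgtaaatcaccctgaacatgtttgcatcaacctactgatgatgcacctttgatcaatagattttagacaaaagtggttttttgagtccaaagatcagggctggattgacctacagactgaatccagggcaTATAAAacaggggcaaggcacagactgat
Pck1: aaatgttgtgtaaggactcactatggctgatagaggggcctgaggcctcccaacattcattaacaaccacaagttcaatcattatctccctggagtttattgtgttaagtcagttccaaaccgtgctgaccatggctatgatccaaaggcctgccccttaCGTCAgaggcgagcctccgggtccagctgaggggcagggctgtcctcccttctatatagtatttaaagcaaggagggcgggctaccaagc
Slc37a4, upstream start site: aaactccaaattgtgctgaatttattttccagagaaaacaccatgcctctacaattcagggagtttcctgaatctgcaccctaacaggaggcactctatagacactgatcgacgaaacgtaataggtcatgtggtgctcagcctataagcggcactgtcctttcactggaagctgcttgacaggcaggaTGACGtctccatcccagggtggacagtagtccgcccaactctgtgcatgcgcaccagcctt
Slc37a4, downstream start site: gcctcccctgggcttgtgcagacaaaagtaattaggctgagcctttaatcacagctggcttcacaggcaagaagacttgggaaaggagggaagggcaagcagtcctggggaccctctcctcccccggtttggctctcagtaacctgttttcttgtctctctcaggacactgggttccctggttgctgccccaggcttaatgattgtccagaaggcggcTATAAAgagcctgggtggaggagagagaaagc

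In G6pc the insulin response core lay on the reverse strand at -174 to -168 and the TATA box at -29 to -24 from the start site. In Pck1 the cAMP core lay on the reverse strand at -90 to -86. The upstream Slc37a4 window held the cAMP core at -61 to -57, and the downstream one held a TATA box at -32 to -27. The window of the middle Slc37a4 start site held that same cAMP core, at -214 to -210 from its own start, and another on the reverse strand at -82 to -78, beyond the upstream window. Of 32851 RefSeq windows of the same length, 17.8% held the cAMP core, 3.17% the forkhead core, 5.56% the insulin response core, 12.4% the TATA box and 1.55% the full element. A match describes letters in a window and is not a measured binding site.

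Per kilobase of exon, levels in CC ran in the order Pck1 (1779 ± 293), Fbp1 (714 ± 56.4), G6pc (247 ± 22.5), Pcx (174 ± 29.2), Gcgr (134 ± 10.9), Slc37a4 (109 ± 26.5), Slc2a2 (48.7 ± 3.24), Ppargc1a (2.89 ± 0.344) and Foxo1 (2.62 ± 0.487; SD, n = 3 each). The neighbours Gcgr and Slc37a4, and Ppargc1a and Foxo1, differed by less than the larger SD of the pair. The enzyme genes spanned a wide range and the regulators were far lower.

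The obesogenic diet of the sons was the question put to each gene first, as the average over both kinds of dam. Of the 9 genes, 2 fell and 0 rose in limma's test on log2(value + 0.5) with Benjamini-Hochberg adjustment over all 12086 genes at 0.05, against 1.72% of all genes lower and 2.24% higher. G6pc and Slc37a4 were the ones that fell. At an unadjusted p under 0.05 there were 6 of 9, against 19.4% of all genes. The median log2 difference of the 9 was -0.39, with 7 below 0, beside -0.00078 over all genes. The average shares its libraries with the contrasts within each kind of dam, so these are not independent.

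Slc37a4 (ENSMUSG00000032114), the transporter that carries glucose phosphate into the endoplasmic reticulum, had 136, 91.8 and 140.2 in OO and 133 and 120.5 in CO, against 166, 233 and 156 in OC and 342, 208 and 311 in CC. All 5 libraries of sons on the obesogenic diet lay below all 6 of sons on chow, and CC had the highest mean and the widest spread, with CC.1 below OC.1. The share of all genes that separate these 5 libraries from these 6 was not counted, here or for the genes and markers below. Between CO and CC alone, 17.9% of all genes had all CO values below all CC values. The average difference was a log2 change of -0.87 (SE 0.17, 95% interval -1.23 to -0.51), that is 1.83-fold lower (limma adjusted p = 0.0146). Leaving out CO.1 gave -0.83 and adjusted p = 0.06, the only 1 of 11 omissions that ended the call. Without OC.0 and CO.1, the pancreas-rich libraries, it was -0.87 (limma adjusted p = 0.103), and without OC.1 and CO.1 it was -0.74 (limma adjusted p = 0.0798).

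G6pc (ENSMUSG00000078650), the catalytic subunit of glucose-6-phosphatase, had 599, 205 and 197 in OO and 272 and 173 in CO, against 807, 527 and 569.6 in OC and 639, 614 and 535 in CC. OO.0 lay among the chow libraries, while the other 4 libraries of sons on the obesogenic diet lay below all of them. The log2 difference was -1.28 (SE 0.27, 95% interval -1.87 to -0.69), that is 2.43-fold lower (limma adjusted p = 0.0248). The call was lost without CC.0 (limma adjusted p = 0.0645), CC.2 (0.0517), CO.1 (0.106), OC.0 (0.0634) or OO.1 (0.0514), and with weights for library quality (-0.94, adjusted p = 0.0858). It was also lost without OC.0 and CO.1 (-1.02, adjusted p = 0.198) and without OC.1 and CO.1 (-1.18, adjusted p = 0.108). Leaving out OO.0 gave -1.54 and adjusted p = 0.00106.

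The sum of periportal markers, a zone where gluconeogenic enzymes are richest in the liver lobule, was lower in sons on the obesogenic diet. Not every marker in it was: Cyp2f2 did not follow. The sum over 6 of 6 measured markers (Hal, Sds, Etnppl, Cyp2f2, Gls2, Arg1) was 1783 to 2369 in OO and 1495 to 2244 in CO, against 2701 to 3366 in OC and 3845 to 5062 in CC, and no marker was at 0. All OC sums also lay below all CC sums, and Arg1 was the largest term in every chow library. Etnppl, Gls2 and Arg1 were lower in all 5 libraries of sons on the obesogenic diet than in all 6 on chow, while Hal and Sds overlapped through OC.2. How many of all genes separate in this way was not counted. Cyp2f2 overlapped widely, with 684 to 784 in OO, 431 to 861 in CO, 608 to 677 in OC and 609 to 802 in CC. Sums over 6 pericentral markers overlapped, at 9267 to 14082 in OO and 10482 to 13863 in CO, against 7665 to 10442 in OC and 8872 to 10956 in CC, and Cyp2e1 made up most of each sum. Glul, glutamine synthetase of the pericentral zone, did not overlap, with 1196, 1124 and 1613 in OO and 1192 and 1137 in CO, against 789.9, 1035 and 961 in OC and 894, 959 and 921 in CC. The other 5 pericentral markers overlapped between the diets of the sons.

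Markers of other cell types were summed as well. The sum over 3 of 5 cholangiocyte markers, mostly Spp1, was 42.1 to 72.7 in OO and 49.7 to 59.2 in CO, against 29.6 to 41.7 in OC and 25.7 to 41.5 in CC. These sums were just separate between the diets of the sons, but Spp1, Epcam and Sox9 each overlapped. Spp1 was 38.14 in OO.0 and 38.15 in CC.1. Stellate cell sums over 5 of 5 markers were 396 to 551 in OO and 423 to 442 in CO, against 374 to 456 in OC and 347 to 361 in CC, with CC below all others. Kupffer cell sums over 5 of 5 markers were 362 to 399.6 in OO and 301 to 366 in CO, against 262 to 435 in OC and 229 to 314 in CC, and overlapped. No marker of these 3 lists that was measured was at 0. Endothelial sums over 4 of 4 markers were 277 to 324 in OO and 308 to 320 in CO. They were 305 to 332 in OC and 263 to 304 in CC, and overlapped. Erythroid sums over 4 of 4 markers were 175 to 341 in OO and 231 to 560 in CO. They were 186 to 390 in OC and 244 to 292 in CC, and also overlapped. The part of zonal or cell type composition in the results was not tested. In whole tissue, fewer cells of a type and less RNA per cell cannot be told apart.

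**Figure D1:**
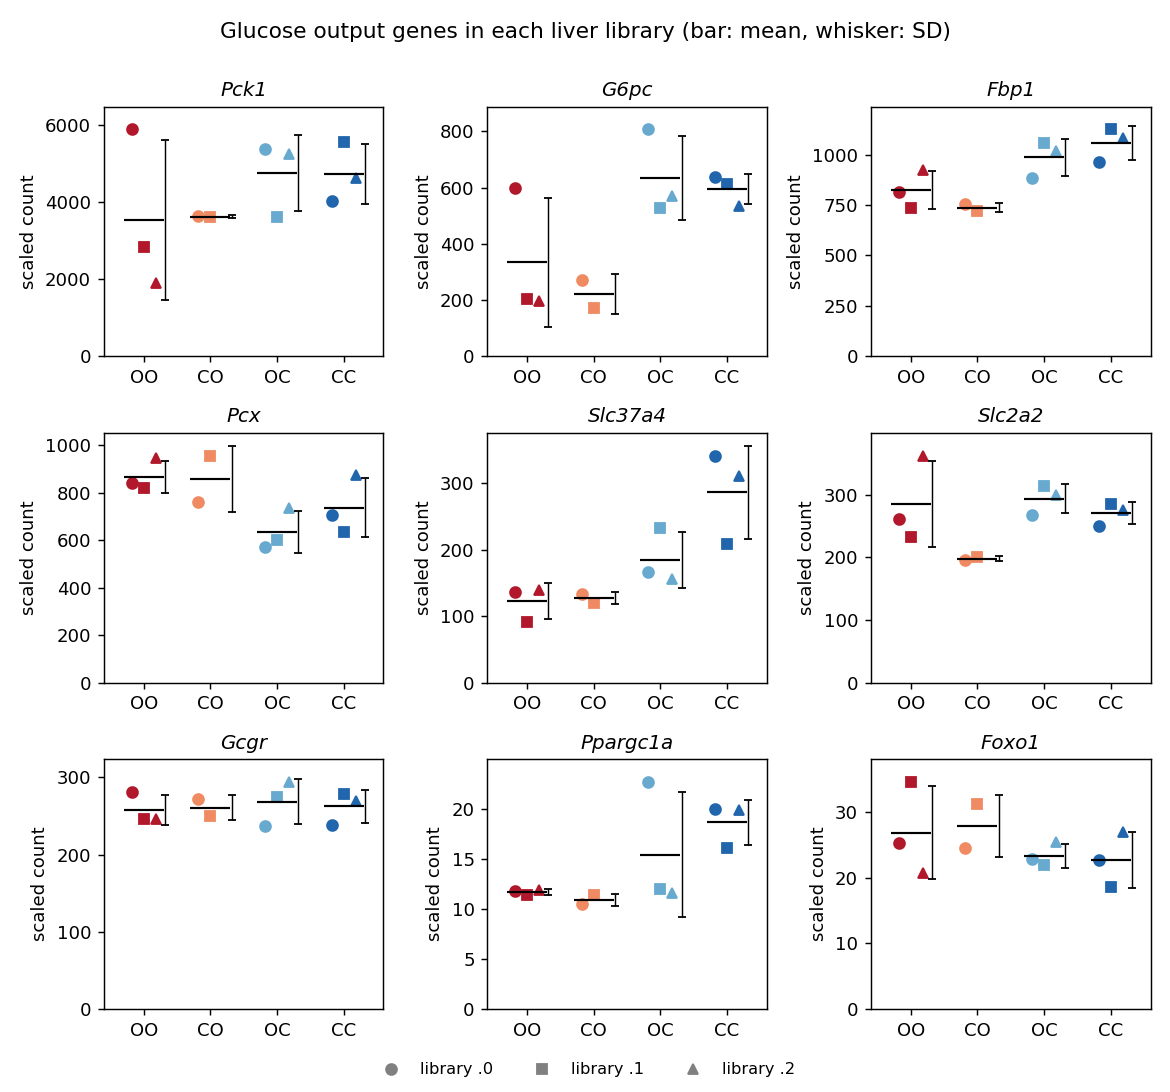
Scaled count (vertical axis, from 0) of each gene in each library of OO, CO, OC and CC; points are libraries with the shape giving the library number, bars are group means and whiskers SD. Slc37a4 is lower in all 5 libraries of sons on the obesogenic diet, and OO.0 stands apart from OO.1 and OO.2 for Pck1 and G6pc.

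Among the other enzymes, Fbp1 (ENSMUSG00000069805), fructose bisphosphatase, had 814, 736 and 924 in OO and 754 and 721 in CO, against 885, 1059 and 1017 in OC and 964, 1125 and 1081 in CC. The 2 sets overlapped only through OO.2 and OC.0. The log2 difference was -0.39 (SE 0.11, limma adjusted p = 0.0653), short of the threshold. It stayed short in all 11 omissions of 1 library and in 6 of 7 other alternatives. Only weights for library quality brought it past the threshold (-0.40, limma adjusted p = 0.0338), and they gave OO.0 the largest weight, 3.17. Pck1 (ENSMUSG00000027513), which makes phosphoenolpyruvate in the cytosol, had 5878, 2834 and 1896 in OO and 3647 and 3598 in CO, against 5375, 3622 and 5245 in OC and 4018, 5563 and 4624 in CC. Its highest and lowest libraries were both in OO, and the log2 difference was -0.47 (SE 0.27, 95% interval -1.06 to 0.12, limma adjusted p = 0.381).

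Pcx (ENSMUSG00000024892), pyruvate carboxylase, which supplies oxaloacetate in mitochondria, had 840.0, 818 and 945 in OO and 761 and 956 in CO, against 570.4, 600.1 and 737 in OC and 706, 633 and 874 in CC. It was the only enzyme of the 4 with a positive difference, a log2 change of 0.34 (SE 0.12, limma adjusted p = 0.162), which missed the threshold. OO lay above OC in every library, and CO and CC overlapped. Slc2a2 (ENSMUSG00000027690), the low-affinity glucose transporter GLUT2 of the hepatocyte membrane, had 261, 233 and 362 in OO and 195 and 201 in CO, against 268, 313 and 299.9 in OC and 251, 286 and 276 in CC. Its log2 difference was -0.26 (SE 0.11, limma adjusted p = 0.246), with CO below all other groups and OO spread around OC and CC.

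The receptor and the regulators did not pass the test. Gcgr (ENSMUSG00000025127), the receptor through which glucagon acts, lay at 246 to 281 in OO and 249.5 to 272 in CO, against 237 to 294 in OC and 239 to 279 in CC. Its log2 difference was -0.03 (SE 0.09, 95% interval -0.23 to 0.16, limma adjusted p = 0.893), the narrowest interval of the 9 and on both sides of 0. Ppargc1a (ENSMUSG00000029167), which encodes PGC-1α, had 11.8, 11.3 and 11.9 in OO and 10.5 and 11.4 in CO, against 22.7, 12.0 and 11.6 in OC and 20.0, 16.1 and 19.9 in CC. Values in OO and CO were low and even, whereas OC.0 stood with CC and the other OC libraries with OO, and the log2 difference was -0.53 (SE 0.16, limma adjusted p = 0.0982). Foxo1 (ENSMUSG00000044167) had 25.2, 34.6 and 20.8 in OO and 24.5 and 31.2 in CO, against 22.8, 21.9 and 25.4 in OC and 22.7, 18.5 and 26.9 in CC, with a log2 difference of 0.23 (SE 0.14, limma adjusted p = 0.422). Only RNA was measured, so the phosphorylation and location of FOXO1 are outside these data.

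Sons of control dams were compared next, as CO against CC. Of the 9 genes, 1 fell and 0 rose in limma's adjusted test, against 0.778% of all genes lower and 1.01% higher, and 5 of 9 had an unadjusted p under 0.05, against 16.8%. Slc37a4 was the one called, at a log2 change of -1.14 (SE 0.25, limma adjusted p = 0.0441), while G6pc stood at -1.45 (SE 0.40, limma adjusted p = 0.0997). Both CO libraries lay below all 3 CC libraries for Pck1, G6pc, Fbp1, Slc37a4, Slc2a2 and Ppargc1a, 6 of 9 genes against 17.9% of all genes. The Slc37a4 call ended without CC.0 (limma adjusted p = 0.159), CC.2 (0.139), CO.0 (0.0906), CO.1 (0.216), OC.0 (0.0584), OC.2 (0.0613) or OO.0 (0.0564), and with CO and CC alone in the fit (0.0638). With CO and CC alone in the fit G6pc passed instead (limma adjusted p = 0.0381), as it did without OO.0 (0.0189), and Ppargc1a passed without OC.0 (-0.74, limma adjusted p = 0.044). OO.0 and OC.0 lie in neither group, so omitting them left these differences as they were and altered only the shared spread and the adjustment. Neither gene passed in any other alternative.

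Sons of obesogenic dams, OO against OC, gave 0 of 9 genes called by limma, against 0.165% of all genes, and 3 of 9 at an unadjusted p under 0.05, against 8.01%. Those 3 were G6pc (log2 change -1.11, limma adjusted p = 0.410), Pcx (0.45, adjusted p = 0.499) and Slc37a4 (-0.59, adjusted p = 0.525). All OO libraries lay below all OC libraries for Slc37a4, 1 of 9 genes against 6.14% of all genes, and above them for Pcx, 1 of 9 against 6.6%. Without OO.0, G6pc fell by 1.63 on the log2 scale (limma adjusted p = 0.021) and was then the 1 gene of the 9 called. The difference between the diet effects of the 2 kinds of dam was tested as an interaction: 0 of 9 genes were called by limma, against 0.0331% of all genes, and 0 of 9 had an unadjusted p under 0.05, against 4.56%. For Slc37a4 that difference was 0.55 on the log2 scale (95% interval -0.17 to 1.27) and for G6pc 0.35 (95% interval -0.83 to 1.53).

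The diet of the dam was compared within sons on 1 diet. For OC against CC, limma called 0 of 9 genes, against 0% of all genes, and 1 of 9 had an unadjusted p under 0.05, against 5.26%: Slc37a4, at a log2 change of -0.62 (unadjusted p = 0.0157, limma adjusted p = 0.923), with OC.1 above the lowest CC library. For OO against CO, 0 of 9 were called, against 0.0414%, and 1 of 9 had an unadjusted p under 0.05, against 5.92%. That gene was Slc2a2, at a log2 change of 0.50 (unadjusted p = 0.0131, limma adjusted p = 0.833), and it was the only 1 of 9 with all OO libraries above all CO libraries, against 10.5% of all genes. Averaged over the diets of the sons, the dam's diet gave 0 of 9 called, against 0.0331%, and 1 of 9 at an unadjusted p under 0.05, against 6.13%, again Slc2a2 (0.31, limma adjusted p = 0.789).

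**Figure D2:**
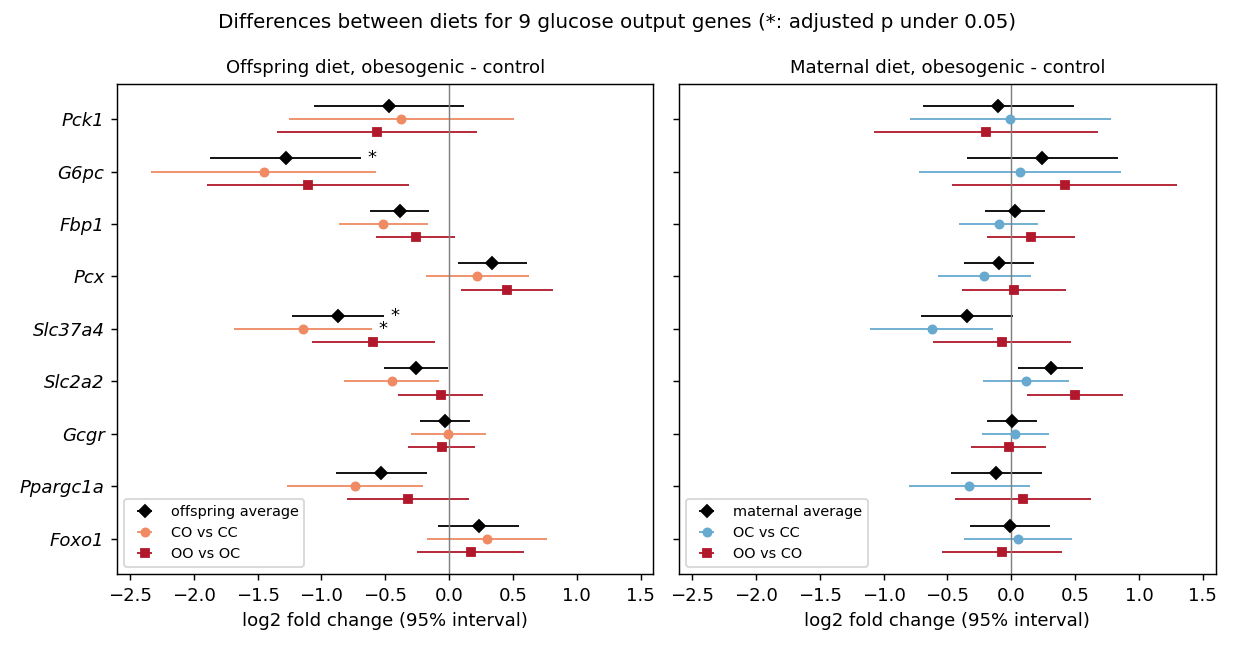
Log2 fold change of each gene with its 95% interval (horizontal axis) for the offspring diet, at left, and the maternal diet, at right, as the average and within each level of the other diet; a star marks an adjusted p under 0.05. Stars stand at G6pc and Slc37a4 for the average offspring diet and at Slc37a4 for CO against CC.

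OO.0 departed from its group in several genes of the pathway. Igfbp1, a secreted binding protein that fasting raises, was looked at after its values were seen and had 230.0 in OO.0 and 68.8 and 25.3 in OO.1 and OO.2, with 128 and 86.7 in CO, against 147, 76.3 and 111 in OC and 279.9, 139 and 96.6 in CC. CC spread about as widely, and CC.0, with the highest Igfbp1 value of all libraries, had the lowest Pck1 value of its group. Ppargc1a did not set OO.0 apart, with 11.8 there and 11.3 and 11.9 in OO.1 and OO.2. OO.0 combined the highest Pck1 value of all libraries with the highest G6pc and Igfbp1 values of its group. It was also the deepest library and had the highest skeletal muscle marker sum, with CC.0 next.

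Opposed enzymes were set against each other as log2 ratios within each library, which cancels library scale. Diet labels of the sons were permuted within each kind of dam in an exact two-sided test, whose smallest possible p was 0.005, and p-values were adjusted over 3 ratios tested. Fbp1 to Pfkl, the liver phosphofructokinase, was 4.80, 4.39 and 4.65 in OO and 4.77 and 4.64 in CO, against 4.55, 4.88 and 4.78 in OC and 5.37, 5.33 and 5.31 in CC. CC stood above all 8 other libraries, and OC lay with OO and CO. Between OC and CC the log2 change was 0.50 for Pfkl (limma unadjusted p = 0.00136, adjusted 0.923) and -0.10 for Fbp1. Between CO and CC it was 0.11 for Pfkl and -0.52 for Fbp1. The offspring diet difference was -0.37 (exact permutation p = 0.03, adjusted 0.09), with -0.63 between CO and CC and -0.12 between OO and OC. Without OO.0 it was -0.42 (exact adjusted p = 0.03), the only 1 of 11 omissions that brought it under 0.05. With that library left out there are fewer label orders, so the smallest possible p is larger. Pck1 to Pklr, liver pyruvate kinase, differed by -0.37 (exact permutation p = 0.45, adjusted 0.45) and ranged from 5.05 to 7.66 in OO alone.

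**Figure D3:**
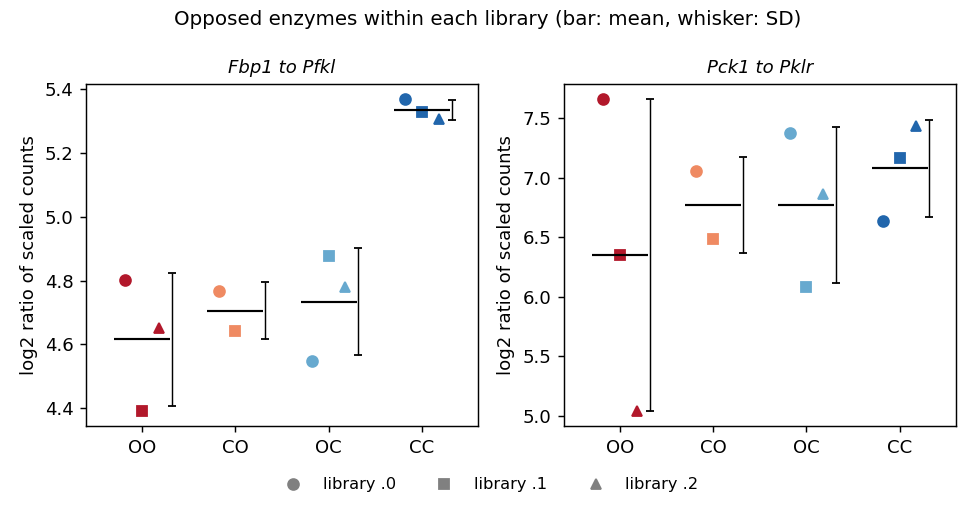
Log2 ratio of scaled counts of opposed enzymes (vertical axes, not from 0) in each library of OO, CO, OC and CC; bars are means, whiskers SD and shapes library numbers. For Fbp1 to Pfkl the CC libraries form a tight set between 5.31 and 5.37, above the others, and for Pck1 to Pklr the groups overlap.

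The genes varied together to different degrees across the 11 libraries, over 36 pairs. Pck1 and G6pc had the highest Pearson r, 0.791 (permutation p = 0.00264, adjusted 0.095), with Spearman's rho 0.818 (permutation p = 0.00318, adjusted 0.0382). Without OO.2 and OO.0, the farthest from the median of Pck1, r was 0.778, and within groups it was 0.83. Fbp1 and Slc37a4 had r 0.77 (permutation p = 0.00554, adjusted 0.0997) and rho 0.836 (permutation p = 0.002, adjusted 0.0364), but r was 0.642 without CO.1 and OO.1 and only 0.26 within groups. Slc37a4 and Ppargc1a had r 0.692 (permutation p = 0.0177, adjusted 0.128) and rho 0.845 (permutation p = 0.00202, adjusted 0.0364), with r 0.411 without CC.0 and CC.2 and 0.0617 within groups. No pair passed on Pearson's r after adjustment, and these 3 passed on rho.

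By likeness over 9326 genes and 11 libraries, given as a description, Slc37a4 was nearest to Arg1 and Rrp15 (Pearson r 0.972 each) and G6pc to Ccnh (0.962) and Fam69a (0.959). Fbp1 was nearest to Anxa6 (0.946) and Hoga1 (0.941), and Pck1 to Scyl3 (0.890) and Azi2 (0.859). Pcx was nearest to Acsf3 (0.916) and Atp9a (0.910), Slc2a2 to Ppp1ca (0.942) and Cenpc1 (0.933), and Gcgr to Psma5 (0.907) and Tgds (0.902). Ppargc1a was nearest to Zfp512b (0.941) and Pym1 (0.922), and Foxo1 to Grk6 (0.872) and Fhod1 (0.857). All these points share library, scaling and group.

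The rest of the pathway was read from 6 lists, for the average offspring diet. Of the other enzymes of the route, 13 of 14 were measured, 1 fell and 0 rose, 11 lay below 0 and the median log2 difference was -0.23. Over all 12086 genes, 1.72% were called lower and 2.24% higher, 6063 lay below 0 and the median was -0.00078, and the counts of every list that follows stand beside these same shares. Got1, the cytosolic aspartate aminotransferase that helps carry oxaloacetate out of mitochondria, fell by 1.31 (SE 0.22, limma adjusted p = 0.00929), with 156, 61.1 and 104 in OO and 160.2 and 119.8 in CO, against 221, 249.7 and 168 in OC and 472, 310.2 and 465 in CC. All libraries of sons on the obesogenic diet lay below all others. Between CO and CC, 12 of the 13 lay below 0 with a median of -0.43, and Got1 was the only one called, beside 0.778% of all genes called lower, 6135 of 12086 below 0 and a median of -0.0059. Between OC and CC, 12 of the 13 also lay below 0, with a median of -0.28, beside 5961 of 12086 and 0.0033 over all genes. Got1 stood there at -0.96 (limma adjusted p = 0.923). Between OO and OC, 10 of the 13 lay below 0 with a median of -0.07, beside 6046 of 12086 and -0.0002.

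Of the genes that bring substrates in, 21 of 23 were measured, 3 fell and 0 rose, with a median of -0.21. Tat, tyrosine aminotransferase, fell by 1.23 (limma adjusted p = 0.0149), Sds, serine dehydratase, fell by 1.11 (adjusted p = 0.0155), and Tkfc, the kinase of dihydroxyacetone and glyceraldehyde, fell by 0.80 (adjusted p = 0.0061). Sds is also a periportal marker and Tat a hepatocyte marker in the lists above. Tat had 1058, 406 and 485 in OO and 525 and 673 in CO, against 1236, 1363 and 954 in OC and 2013, 1316 and 1706 in CC, and OO.0 alone overlapped the chow libraries. Sds lost its call without CO.0 (limma adjusted p = 0.0544) and without OC.0 and CO.1 (0.0721).

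Of the glycogen list, 13 of 13 were measured, 1 fell and 0 rose, with a median of -0.16. Ppp1r3c, a subunit that targets protein phosphatase to glycogen, fell by 1.64 (SE 0.23, limma adjusted p = 0.00313), with 56.3, 65.5 and 43.1 in OO and 12.8 and 26.4 in CO, against 142, 134 and 71.2 in OC and 77.8, 112 and 83.1 in CC. All 5 libraries of sons on the obesogenic diet lay below all 6 on chow and CO was the lowest, while OC and CC overlapped. Of glycolysis and pyruvate oxidation, 21 of 23 were measured, 1 rose and 1 fell, with a median of -0.01: Mlxipl, the carbohydrate response factor ChREBP, rose by 0.57 (limma adjusted p = 0.033) and Pdk1, a kinase that blocks pyruvate dehydrogenase, fell by 0.50 (adjusted p = 0.0318).

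Of hormone and transcriptional control, 41 of 42 were measured, 3 rose and 2 fell, with a median of -0.06. Onecut1, the hepatocyte factor HNF6, rose by 2.23 (SE 0.33, limma adjusted p = 0.00454), with 15.2, 30.7 and 24.4 in OO and 66.5 and 51.0 in CO, against 5.70, 14.6 and 7.68 in OC and 5.38, 13.02 and 3.34 in CC. All 5 libraries on the obesogenic diet exceeded all 6 on chow, and CO was the highest. Stat3, the mediator of interleukin signals, rose by 0.62 (adjusted p = 0.0282) and Cebpb by 0.52 (adjusted p = 0.0433), while the clock repressor Cry1 fell by 1.12 (adjusted p = 0.0488) and the nuclear receptor Esrra by 0.44 (adjusted p = 0.0443). CO.1 had the highest Stat3 value, at 248, and a link to its acute phase transcripts was not tested. Of the insulin arm, 11 of 11 were measured, 1 rose and 0 fell, with a median of 0.02, and the riser was Pik3r1, a regulatory subunit of phosphoinositide kinase (0.47, adjusted p = 0.0304).

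Got1, Tat, Tkfc, Ppp1r3c and Onecut1 kept their calls in the offspring average in each of the 11 omissions of 1 library. Got1 lost it without OC.0 and CO.1 (limma adjusted p = 0.0926) and without OC.1 and CO.1 (0.0654), as did Tat (0.0868 and 0.0617), whereas Tkfc, Ppp1r3c and Onecut1 passed without either pair. Without CO.1 the calls ended for Stat3 (limma adjusted p = 0.111), Cebpb (0.132), Cry1 (0.171), Esrra (0.164), Mlxipl (0.0658), Pdk1 (0.13) and Pik3r1 (0.0781), and each of these also failed in at least 5 other single omissions. Between CO and CC the listed genes called were Got1, Sds, Tkfc, Ppp1r3c and Esrra, lower, and Mlxipl, Onecut1 and Stat3, higher. Of these, Ppp1r3c lost the call only without CC.2 (limma adjusted p = 0.06), Onecut1 and Tkfc lost it without CC.0, CC.2, CO.0 or CO.1 (adjusted p up to 0.0711 and 0.114) and without either pair of libraries (up to 0.084 and 0.118), and the others in 6 or more of 11 omissions. Between OO and OC, OC and CC, and OO and CO, 0 listed genes were called by limma.

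**Figure D4:**
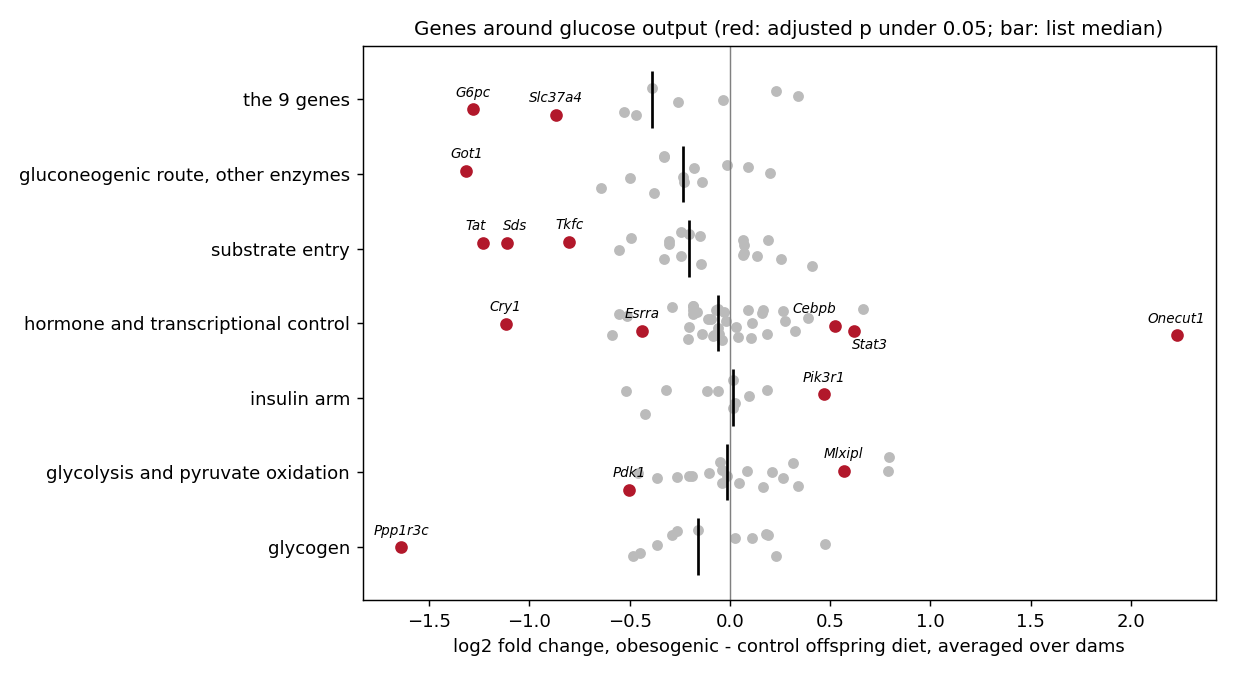
Log2 fold change for the offspring diet averaged over both kinds of dam (horizontal axis) for the 9 genes and 6 lists around them (rows); red points have an adjusted p under 0.05 and bars are list medians. The 9 genes have a median of -0.39, and Onecut1 at 2.23 and Ppp1r3c at -1.64 lie farthest out.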

How the data were processed

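Liver RNA of 11 libraries was analysed as the values the authors deposited for 12086 genes: a signal, in which each library's gene counts (estimated, not always whole) were scaled by a constant. The file calls them CPM, but sums differ between libraries (929699 to 1099404). Alignment used Bowtie 1.2.3 and mm8, per the submitters' processing notes. Counter, annotation, strand setting and scaling: not given in the sources used here. Column names, per the file headers, give the group of each library but not its labelled sample. Dividing by a step found per library made 95.7% to 97.3% of values whole (tolerance 0.01), which gave the depths, and 3 reads correspond to 0.1 to 0.829, counting error only. Symbols matched 11965 genes.

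Limma 3.58.1 (R 4.3.3) was run with an intensity trend on log2(value + 0.5), with 1 mean per group and shared spread (7 residual and 4.66 prior degrees of freedom), and was tested on simulated data. Fold changes on this scale understate changes of low genes. Benjamini-Hochberg adjustment was over all genes. Exact permutation tests enumerated all label orders for 3 ratios, of which 1 is not reported here. The design foresaw CPM values and 12 samples; the log-scale test was kept. Levels per kilobase used exon lengths of a GRCm38 annotation, and no coordinates of the files were used. Named genes were the 9, every listed gene past the threshold in an offspring average or simple contrast, and the 2 nearest by Pearson r for each of the 9 (mean value of at least 5, no Gm or Rik symbols). Igfbp1 was added after its values were seen. The 9 genes, the lists and the tests were chosen with earlier results of these data known. Alternatives were other pseudocounts, scaling, a minimum value, library weights, only the groups compared and omitted libraries.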

Additional observations from a re-analysis of the deposited data

How the results depend on the processing

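Limits come first: CO has 2 libraries, and leaving out either leaves 1 that is assumed to vary like the other groups. The planned edgeR and DESeq2 tests were not run, because whole reads could not be recovered for every library, and depth was rebuilt from the values. No paired analysis was possible because the columns carry no number that ties libraries across groups. The number of the 9 genes called in the offspring average ranged from 0 to 2 over omissions of 1 library, and was 0 without OC.0 and CO.1 and 0 without OC.1 and CO.1. It ranged from 0 to 1 for CO against CC, with 0 without either of those pairs, and from 0 to 1 for OO against OC. Fbp1 to Pfkl ranged from -0.421 to -0.319. Other pseudocounts, the minimum value and median-of-ratios scaling changed no count of called members. Over 84 gene results and 1556 alternatives, 1324 kept direction and side of the threshold, 155 lost a call, 5 gained one and 72 changed sign, 0 of them among called genes; the cause was not tested. Signs changed with library weights for OC against CC (Pck1 0.0782, Foxo1 -0.00771), for OO against CO (Pck1 0.32, Pcx -0.00447, Slc37a4 0.022, Gcgr 0.0534), for Pck1 in the maternal average (0.20) and for Pck1 in the interaction (0.24). Without OC.0 and CO.1 they changed for Gcgr in CO against CC (0.0544), G6pc in OC against CC (-0.117), Foxo1 in OO against CO (0.0979) and the interaction (0.0285), and in the maternal average for G6pc (-0.0124), Pcx (0.0252) and Foxo1 (0.0837). Without OC.1 and CO.1 they changed for Gcgr in the offspring average (0.00782) and CO against CC (0.0544), Pck1 in OC against CC (0.178), Foxo1 in OO against CO (0.0979), G6pc and Foxo1 in the interaction (-0.0987 and 0.000302), and in the maternal average for Fbp1 (-0.0141), Pcx (0.00693), Gcgr (-0.0341) and Foxo1 (0.0978). Omitting 1 library moved sign-changing results of Gcgr between -0.0759 and 0.0011 (offspring average), -0.0751 and 0.0544 (CO against CC), -0.144 and 0.01001 (OO against OC), -0.0363 and 0.118 (OC against CC), -0.0815 and 0.0437 (OO against CO), -0.0274 and 0.0496 (maternal average) and -0.136 and 0.0178 (interaction). For Foxo1 these were -0.0269 and 0.334 (OO against OC), -0.0825 and 0.182 (OC against CC), -0.269 and 0.0979 (OO against CO), -0.108 and 0.0756 (maternal average) and -0.322 and 0.0446 (interaction). For Pck1 they were -0.118 and 0.178 (OC against CC), -0.644 and 0.172 (OO against CO), -0.325 and 0.0832 (maternal average) and -0.638 and 0.178 (interaction), and for G6pc -0.117 and 0.191, -0.106 and 0.743, -0.0185 and 0.406, and -0.176 and 0.674 in the same order. Against CO, OO moved between -0.143 and 0.187 for Pcx and -0.181 and 0.123 for Slc37a4; Slc2a2 moved between -0.251 and 0.0691 for OO against OC, and Fbp1 between -0.0141 and 0.0681 in the maternal average.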
